A study of Arabidopsis thaliana with 8 samples.

Results

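The genes described here are those of the Arabidopsis thaliana plastid genome that encode the photosynthetic apparatus. They were taken as the probe sets whose single gene has a plastid locus tag and a symbol beginning with psa, psb, pet, atp or ndh, or is rbcL. These were 43 of the 22810 probe sets on the ATH1 array, namely 5 of photosystem I, 15 of photosystem II, 6 of the cytochrome b6f complex, 6 of the ATP synthase, 10 of the NDH complex and rbcL. The probe set for ndhB was left out because it is assigned to both copies of that gene. The 8 arrays were hybridised with biotin-labelled RNA of whole plants at developmental stage 3.90, 4 from Cal-0, labelled a calcicole, and 4 from Col-4, labelled a non-calcicole. Both accessions had the same conditions, sand watered daily in a growth room (23 degrees Celsius, humidity 34, lighting 160) with 1 mM CaCl2 and Long Ashton nutrients at 0.5 times strength, and their seed had been stratified for 48 hours at 4 degrees Celsius. Each accession is a single stock, and nothing in the labels says whether plants were pooled or replicates came from separate plantings, so the p-values reflect no more than the spread among these arrays, which may be technical.

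Photosystem II takes electrons from water with the energy of light, the cytochrome b6f complex passes them on and pumps protons, and photosystem I lifts them to ferredoxin. The ATP synthase of the thylakoid membrane makes ATP from the proton gradient, the NDH complex returns electrons from ferredoxin to the plastoquinone pool, and Rubisco fixes carbon dioxide. The plastid genome encodes the cores of these complexes, while nuclear genes supply the remaining subunits and most of the factors that transcribe, process and stabilise plastid RNA. Many plastid genes are transcribed together with their neighbours and cut into smaller RNAs afterwards. Plastid messengers mostly lack the long poly(A) tails of nuclear ones, and how the RNA was primed for labelling is not given in the sources used here.

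Precision is limited by the number of arrays, whose medians over the 22746 probe sets that are not controls ranged from 44.0 to 50.1 signal units. A probe set was tested where its signal, averaged over the 8 arrays, reached 25. All 43 genes passed, and 42 had a mean of at least 100. Their summed signal made up between 2.47% and 3.81% of the summed signal of an array, highest in Col-4 replicate 4, which stood apart from the other arrays in these genes. The 3′ to 5′ ratio of controls (GAPDH and actin probe sets), a sign of RNA quality, was also highest in Col-4 replicate 4. As a log2 ratio it was 1.70, 1.52, 1.88 and 1.96 in Cal-0 replicates 1 to 4 and 0.955, 0.927, 1.66 and 2.39 in Col-4 replicates 1 to 4. In whole plants, fewer green cells or plastids and less RNA per plastid cannot be told apart. Of the tissue markers listed for leaf, root, flower, seed and senescence, the gene table named a probe set only for the root gene PYK10, with a mean of 788 ± 330 in Cal-0 arrays and 605 ± 230 in Col-4 arrays (SD over n = 4 each), so the labelled tissue could be checked no further.

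Of the plastid photosynthesis genes ndhD alone passed the test between the accessions, with lower signal in Cal-0, and most of the others differed by little. The array was designed on Columbia sequence, and whether Cal-0 sequence mismatches the probes of any gene was not tested. Lower signal in Cal-0 therefore need not mean less RNA. Differences are given throughout on the log2(signal + 16) scale, where 1 stands for a doubling of signals well above 16. Over the 43 genes the median difference, Cal-0 minus Col-4, was -0.003, with 21 positive and 22 negative, beside a median of 0.028 over all 15165 probe sets tested. For 30 of the 43 the difference was under 0.2 in size. The 95% interval of the difference lay within 2-fold for 39 of them, or 90.7%, close to the 91.0% of all probe sets tested, the others being ndhD, psaC, psbT and petN. limma called 1 of 43, or 2.33%, at a Benjamini-Hochberg adjusted p under 0.05, beside 4.29% of all probe sets, of which 1.54% were higher and 2.75% lower in Cal-0. At an unadjusted p under 0.05 there were 4 genes, ndhD, psaC, petG and petN, beside 15.5% of all probe sets. Both shares of the 43 lie no higher than the background, so the number of calls is no result about these genes.

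**Figure D1:**
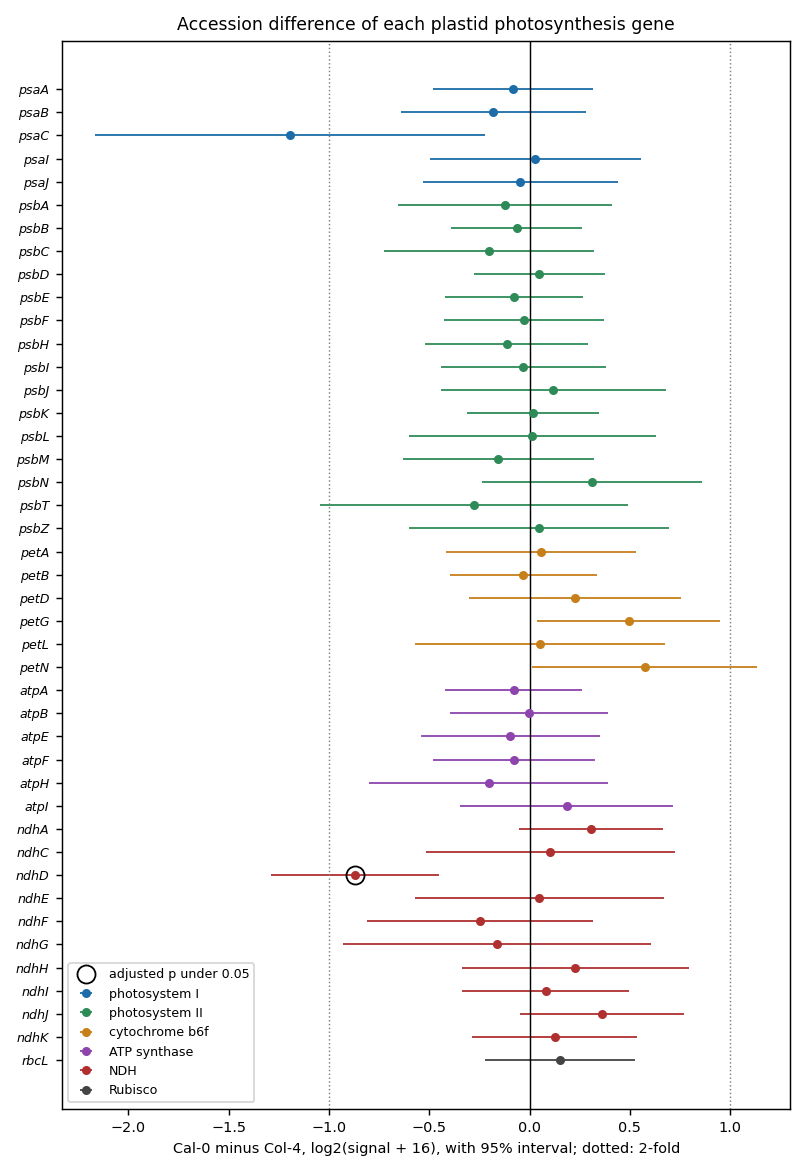
Difference between Cal-0 and Col-4 of each of the 43 genes on the log2(signal + 16) scale, with its 95% interval from limma, coloured by complex (n = 4 arrays each); dotted lines mark 2-fold. ndhD, circled, is the gene past the threshold, psaC has the most negative difference at -1.19 with a wide interval, and most others lie close to 0.

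ndhD encodes a membrane subunit of the NDH complex that is related to proton-pumping subunits of respiratory complex I. Its signals were 1621.1, 1341.3, 1050.2 and 1579.6 in Cal-0 replicates 1 to 4, against 2361.6, 2307.7, 2165.6 and 3489.4 in Col-4 replicates 1 to 4. Every Cal-0 array lay below every Col-4 array, which was the case in either direction for 10.3% of all probe sets tested and for no other of the 43 genes. The means were 1398 ± 263 in Cal-0, against 2581 ± 611 in Col-4 (SD over n = 4 each), a difference of -0.87 with a 95% interval of -1.29 to -0.45 (limma adjusted p = 0.024). Blocking on replicate number gave a limma adjusted p of 0.00508 for ndhD, and blocking on array set gave 0.0197. Within arrays 1 to 4 the difference was -0.66 (limma adjusted p = 0.271), and within arrays 5 to 8 it was -1.08 (limma adjusted p = 0.0873). The call was lost without Cal-0 replicate 2, Cal-0 replicate 3 or Col-4 replicate 2, at limma adjusted p of 0.0624, 0.0679 and 0.0511, while over all 8 leave-one-out fits the difference stayed between -0.95 and -0.72.

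psaC, which lies next to ndhD on the plastid genome, encodes the photosystem I protein that binds the terminal iron-sulfur clusters. It had the most negative difference of the 43. Its signals were 848.5, 688.7, 282.1 and 455.9 in Cal-0 and 1131.9, 917.8, 660.4 and 3217.6 in Col-4. The accessions overlapped over all arrays, since Cal-0 replicates 1 and 2 exceeded Col-4 replicate 3. Within arrays 1 to 4 and within arrays 5 to 8 both Cal-0 arrays lay below both Col-4 arrays. How many of all probe sets do so was not counted, so that order is no result about psaC. The psaC difference was -0.41 within arrays 1 to 4 (limma adjusted p = 0.802) and -1.98 within arrays 5 to 8 (limma adjusted p = 0.155), and neither passed. The means were 569 ± 250 in Cal-0, against 1482 ± 1173 in Col-4 (SD over n = 4 each), and the difference of -1.19 had a 95% interval of -2.17 to -0.22 and did not pass (limma adjusted p = 0.199). Without Col-4 replicate 4 the psaC difference was -0.73 (limma adjusted p = 0.305). Blocking on replicate number gave a limma adjusted p of 0.0687 and blocking on array set 0.160, so psaC passed in neither. Of the genes on either side of this pair, ccsA, which takes part in attaching haem to cytochromes, was at -0.18, and ndhE of the NDH complex at 0.05, neither past the threshold.

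**Figure D2:**
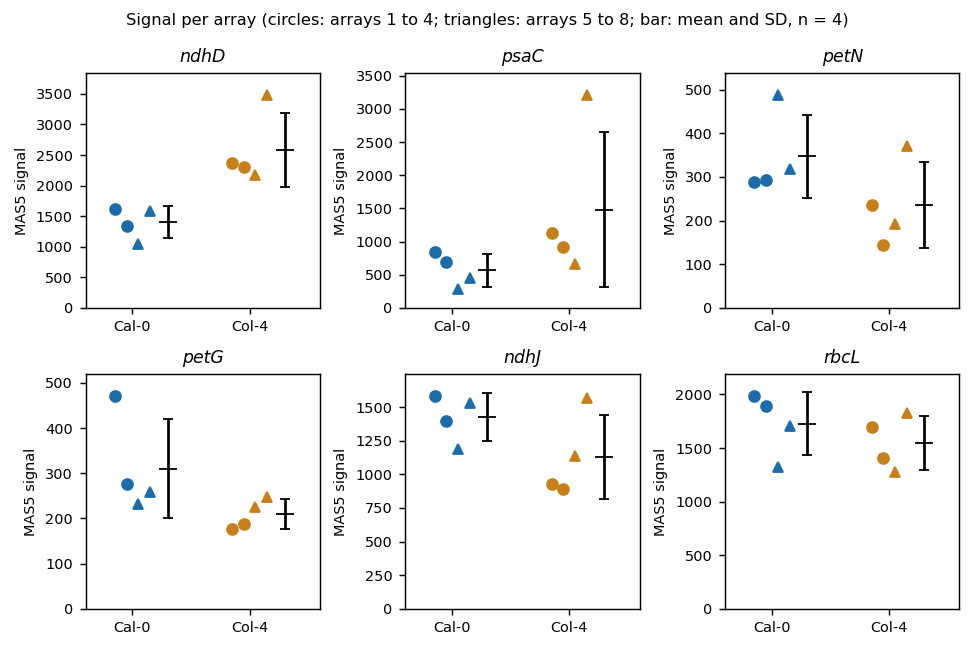
MAS5 signal of ndhD, psaC, petN, petG, ndhJ and rbcL in each array (circles, arrays 1 to 4; triangles, arrays 5 to 8), with the mean and SD of each accession (n = 4) beside them. The 4 Cal-0 values of ndhD, at most 1621.1, lie below the 4 Col-4 values, at least 2165.6, whereas in the other 5 genes the accessions overlap.

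In photosystem I, no gene passed. psaA and psaB encode the large proteins that hold the reaction centre. psaA averaged 1397 ± 151 in Cal-0, against 1510.1 ± 412 in Col-4 (difference -0.08), and psaB 5201 ± 953 in Cal-0, against 6009 ± 1871 in Col-4 (difference -0.18; SD over n = 4 each). Of the genes for small membrane subunits, psaJ differed by -0.05, and psaI, the member with the most positive difference, by 0.03. psaI was at 2645.3, 1942.7, 2041.3 and 2836.1 in Cal-0 and at 1838.3, 1890.9, 1998.3 and 3940.7 in Col-4, so the accessions overlapped and a single Col-4 array stood high. Without that array, replicate 4, the psaI difference was 0.29.

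In photosystem II, none of the 15 genes passed, and the differences ran from -0.28 to 0.31 with a median of -0.03. psbA and psbD, which encode the reaction centre proteins, differed by -0.12 and 0.05. psbB and psbC encode the inner antenna proteins and differed by -0.07 and -0.20. psbE and psbF, whose products bind the haem of the photosystem's own cytochrome, were at -0.08 and -0.03. Among genes of small subunits and assembly, psbN had the smallest p and the most positive difference. Its product is known from tobacco to act in assembly of the photosystem. psbN was at 370.2, 573.8, 281.7 and 425 in Cal-0 and at 292.6, 317.7, 496.8 and 223 in Col-4, overlapping ranges with a difference of 0.31 (95% interval -0.24 to 0.86, limma adjusted p = 0.639). The psbN difference was 0.14 without Cal-0 replicate 2, 0.15 without Col-4 replicate 4 and 0.52 without Col-4 replicate 3. psbT, for a small subunit, had the most negative difference at -0.28, with 746, 549.5, 640.6 and 809.2 in Cal-0 against 493.9, 557.8, 853.5 and 1959 in Col-4. Here Col-4 replicate 4 again stood highest, and without it the difference was 0.13. With the 3′ to 5′ ratio of control probe sets as a covariate the difference of psbT was -0.63 and passed, at a limma adjusted p of 0.0295. psbH, psbI, psbK, psbL and psbM differed by between -0.155 and 0.02.

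None of the 6 cytochrome b6f genes passed; 5 differences were positive, and their median was 0.14. petN and petG, which encode small membrane subunits, had the most positive differences among all 43 genes. petN was at 288.9, 293.6, 488.9 and 317.8 in Cal-0 and at 234.7, 144.8, 191.6 and 371.4 in Col-4, and only Col-4 replicate 4 reached the Cal-0 range. Its difference was 0.57 (95% interval 0.01 to 1.14, limma adjusted p = 0.309), and it was 0.81 without Col-4 replicate 4 (limma adjusted p = 0.0686). petG was at 472, 277.2, 232.2 and 259.3 in Cal-0 and at 176.2, 187.4, 225 and 247.7 in Col-4, with a difference of 0.49 (95% interval 0.04 to 0.95, limma adjusted p = 0.273). Without Cal-0 replicate 1, the array at 472, petG was at 0.28, below psbN at 0.35 and ndhJ at 0.31 in the same fit. The petG difference was 0.94 within arrays 1 to 4 (limma adjusted p = 0.0744) and 0.05 within arrays 5 to 8 (limma adjusted p = 0.959), and neither passed. petB, which encodes the haem-binding cytochrome b6 protein, was the negative member at -0.03, with 5591, 4373.8, 4015 and 5227.8 in Cal-0 and 4684.4, 4231.4, 4488.3 and 6300.7 in Col-4. Without Col-4 replicate 4 the petB difference was 0.092. petA, for cytochrome f, differed by 0.06, petD by 0.23 and petL by 0.05.

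The 6 ATP synthase genes all had intervals within 2-fold, and none passed the threshold. atpB, for the catalytic beta subunit, averaged 7465 ± 887 in Cal-0, against 7614 ± 1979 in Col-4 (SD over n = 4 each), a difference of -0.003 with a 95% interval of -0.40 to 0.39. atpA, for the alpha subunit, differed by -0.08, atpE by -0.10 and atpF by -0.08. atpH, which encodes the subunit of the rotating membrane ring, had the most negative difference at -0.20, with 2883.9, 2418, 1856.1 and 2068.8 in Cal-0 against 2113.1, 1854.9, 2448.9 and 4929.9 in Col-4. That direction rested on Col-4 replicate 4, without which the atpH difference was 0.097, and with array weights it was 0.0089. atpI, for the membrane subunit beside that ring, had the most positive at 0.18, which was 0.016 without Cal-0 replicate 1 or Cal-0 replicate 2, and 0.37 without Cal-0 replicate 3. Its Cal-0 values were 338.1, 338.2, 153.3 and 166 and its Col-4 values 190, 216.1, 196 and 212.6. Cal-0 was thus above Col-4 in arrays 1 to 4, by 0.70, and below it in arrays 5 to 8, at -0.33, and neither passed (limma adjusted p = 0.0586 in arrays 1 to 4, limma adjusted p = 0.453 in arrays 5 to 8).

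Apart from ndhD, the NDH genes did not pass, and 7 of the 10 differences were positive. ndhJ, for a subunit of the arm outside the membrane, had the most positive, at 0.36 (95% interval -0.05 to 0.77, limma adjusted p = 0.406). It was at 1586.8, 1394.1, 1190.5 and 1534 in Cal-0 and at 927.3, 891.4, 1134.5 and 1565.4 in Col-4. Col-4 replicate 4 reached the Cal-0 range and the other Col-4 arrays lay below all Cal-0 arrays. ndhA and ndhH were also higher in the Cal-0 mean, at 0.31 and 0.23, and ndhK, ndhC, ndhI and ndhE lay between 0.05 and 0.12. ndhF, the gene with a mean under 100, averaged 47.9 ± 19.6 in Cal-0, against 60.2 ± 26.7 in Col-4 (SD over n = 4 each), and differed by -0.25, and ndhG by -0.16. The rbcL gene for the large subunit of Rubisco was at 1989.8, 1890.8, 1322.7 and 1709 in Cal-0 and at 1694.9, 1402.7, 1275.7 and 1823.3 in Col-4, overlapping ranges with a difference of 0.15 (95% interval -0.22 to 0.53).

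Arrays of the same accession also differed from each other over these genes. Taking each gene's deviation from its mean over the 8 arrays, the median over the 43 genes was 0.08, -0.15, -0.19 and 0.18 in Cal-0 replicates 1 to 4, and -0.11, -0.22, -0.08 and 0.46 in Col-4 replicates 1 to 4. Over all probe sets tested, the same medians lay between -0.03 and 0.04. Col-4 replicate 4 stood highest, holding the top value of the Col-4 arrays for 32 of the 43 genes, or 74.4%, beside 27.2% of all probe sets. Cal-0 replicates 4 and 1 held the top value among Cal-0 arrays for 21 and 17 genes, or 48.8% and 39.5%, beside 25.8% and 23.1% of all probe sets. The elevation of Col-4 replicate 4 ran through the complexes other than Rubisco. Its medians were 0.67 for photosystem I, 0.46 for photosystem II, 0.39 for cytochrome b6f, 0.49 for ATP synthase and 0.43 for NDH. rbcL was at 0.17 on that array, below its 0.30 in Cal-0 replicate 1 and 0.22 in Cal-0 replicate 2. The other 26 plastid genes had a median of 0.60 on Col-4 replicate 4. Only psbN and psbD were lowest there among the Col-4 arrays, psbN at 223 beside 292.6, 317.7 and 496.8.

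**Figure D3:**
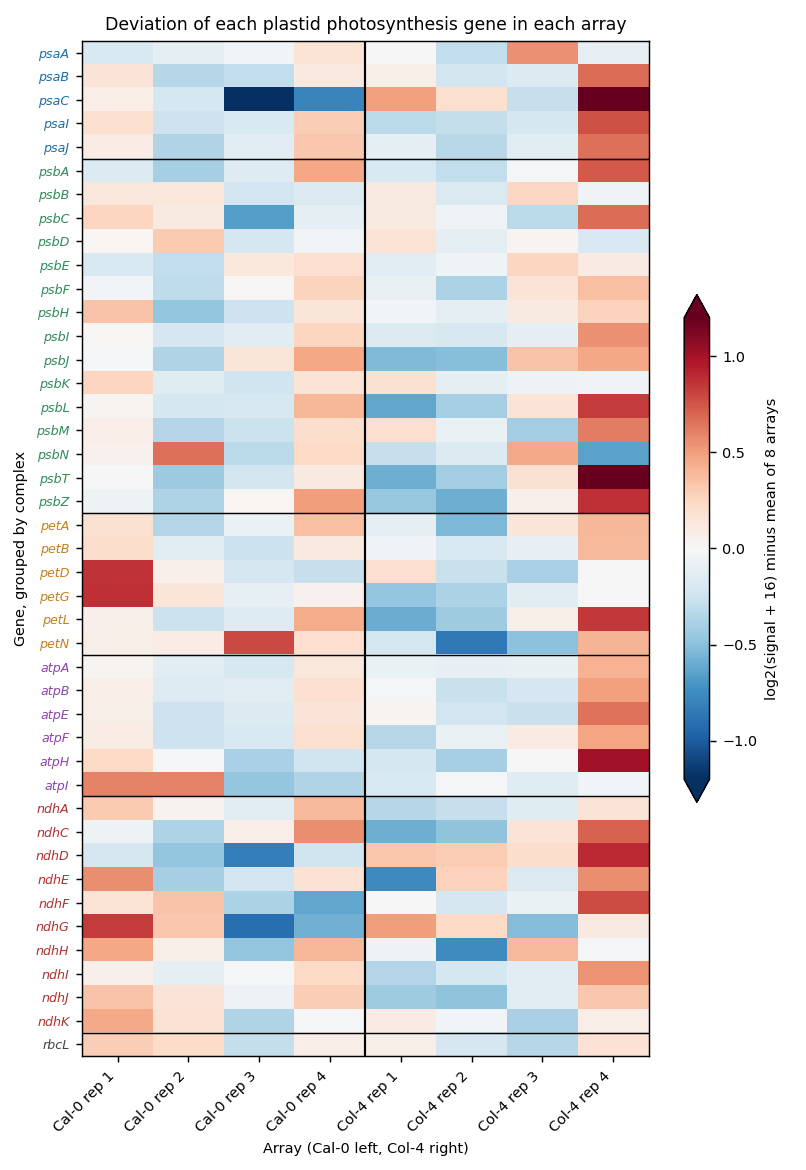
Heat map of the 43 genes (rows, grouped by complex) in the 8 arrays (columns, Cal-0 left and Col-4 right), showing log2(signal + 16) minus the gene's mean over all arrays; red is higher and blue lower. The Col-4 replicate 4 column is red for most genes, and ndhD is blue in all 4 Cal-0 columns.

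The SD of a gene over the 4 arrays of an accession had a median of 0.28 among Cal-0 arrays and 0.40 among Col-4 arrays, beside 0.21 in Cal-0 and 0.23 in Col-4 over all probe sets tested. Without Col-4 replicate 4 the median SD of the 43 genes in Col-4 was 0.21. atpA was at 5084.1, 5018.4 and 5062.4 in Col-4 replicates 1 to 3 and at 7169.8 in replicate 4, and psbI at 2357.3, 2323.6 and 2456.7 in replicates 1 to 3 and at 3899.6 in replicate 4. Col-4 replicate 4 also had the highest 3′ to 5′ ratio of controls, whose part in the plastid signals was not tested beyond a fit with the ratio as a covariate. In that fit ndhD differed by -0.96 (limma adjusted p = 0.0102) and the median of the 43 genes was -0.15. Without Col-4 replicate 4 the median difference between the accessions was 0.15, with 33 of the 43 positive, and ndhD, at -0.72, was the called gene.

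**Figure D4:**
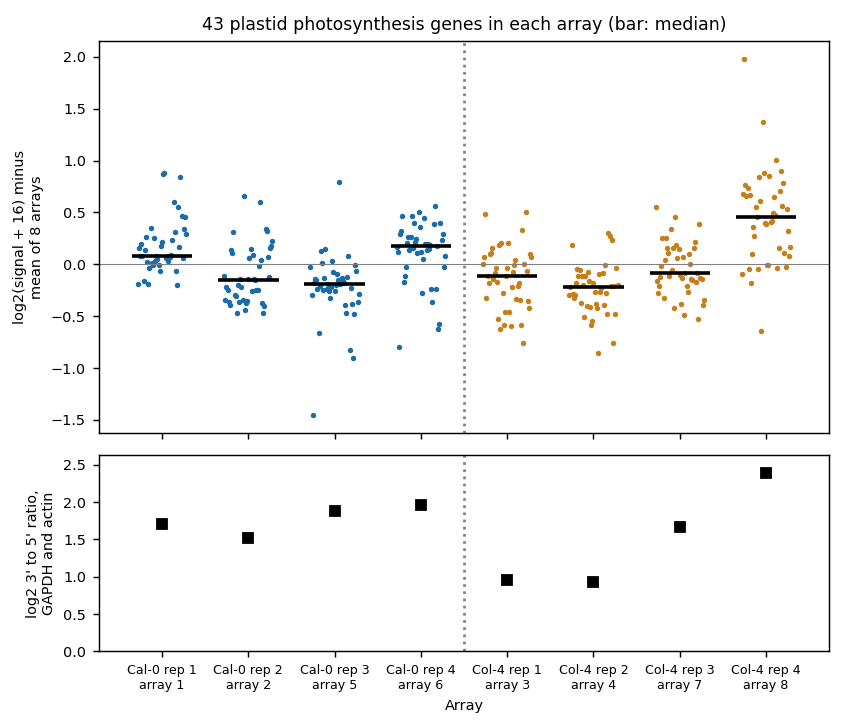
Upper panel, deviation of each of the 43 genes from its mean over 8 arrays in log2(signal + 16), with the median as a bar, for Cal-0 (left) and Col-4 (right). Lower panel, log2 ratio between 3′ and 5′ control probe sets (GAPDH and actin, averaged). Col-4 replicate 4 has the highest median, 0.46, and the highest ratio, 2.39.

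The titles number the arrays, and arrays 5 to 8 and arrays 1 to 4 each hold 2 arrays of each accession. Between these sets, 4 of the 43 genes passed, or 9.3%, beside 8.03% of all probe sets tested, a share near the background (4.04% higher and 3.98% lower in arrays 5 to 8). At an unadjusted p under 0.05 there were 13, beside 28.5% of all. psbJ, for a small photosystem II subunit, was at 1329.6 and 1661.9 in Cal-0 and 1529.7 and 1658.5 in Col-4 in arrays 5 to 8, against 1193 and 931.8 in Cal-0 and 827.3 and 837.3 in Col-4 in arrays 1 to 4. Its difference, arrays 5 to 8 minus arrays 1 to 4, was 0.71 (limma adjusted p = 0.0229), with no overlap. ndhC, for a membrane subunit of NDH, was at 2229, 3128.6 (Cal-0), 2353.5 and 3460.4 (Col-4) in arrays 5 to 8, against 2026.1, 1633.4 (Cal-0), 1401.1 and 1510.1 (Col-4) in arrays 1 to 4, again with no overlap. It averaged 2793 ± 597 in arrays 5 to 8 and 1643 ± 273 in arrays 1 to 4 (SD over n = 4 each; difference 0.75, limma adjusted p = 0.0321). psbZ, of photosystem II, was at 2626.6, 3650.4 (Cal-0), 2694.7 and 4756.8 (Col-4) in arrays 5 to 8, against 2468.5, 1986.4 (Cal-0), 1874.3 and 1712.8 (Col-4) in arrays 1 to 4. It averaged 3432 ± 999 in arrays 5 to 8 and 2010.5 ± 325 in arrays 1 to 4 (difference 0.74), and its limma adjusted p of 0.049998 lay at the threshold. ndhG, also for a membrane subunit of NDH, went the other way, with all of arrays 5 to 8 below all of arrays 1 to 4. It was at 167.7, 214.4 (Cal-0), 223.5 and 354.5 (Col-4) in arrays 5 to 8, against 601.7, 413.9 (Cal-0), 472.2 and 389.9 (Col-4) in arrays 1 to 4. Its means were 240.03 ± 80.1 in arrays 5 to 8 and 469 ± 94.7 in arrays 1 to 4 (difference -0.95, limma adjusted p = 0.0276).

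These calls between array sets were not steady. psbJ kept its call in 13 of 19 alternatives, ndhC and ndhG in 11 each and psbZ in 7, and none of the 4 kept it with the 3′ to 5′ ratio as a covariate. In that fit psbJ, ndhC and psbZ were at 0.40, 0.25 and 0.08, while ndhG was at -1.65, further from 0 than without the covariate (limma adjusted p = 0.0668). That ratio itself was higher in arrays 5 to 8, at 1.66 to 2.39, than in arrays 1 to 4, at 0.927 to 1.70, with overlap. Over the 43 genes the median difference between array sets was 0.17, with 30 positive, beside -0.05 over all probe sets, and it was 0.03 when Col-4 replicate 4 was left out, 0.098 with array weights and 0.0060 after quantile normalization. The root gene PYK10 was at -0.83 between array sets (95% interval -1.35 to -0.31, limma adjusted p = 0.0563), and its part in the differences of the plastid genes was not tested. Without Col-4 replicate 4 psbJ, ndhG and psaC were called between array sets, psaC at -0.88 (limma adjusted p = 0.0374), and ndhC and psbZ were not. In 7 of the 43 genes the array sets did not overlap, namely psbA, psbE, psbF, psbJ, psbZ, ndhC and ndhG, beside 15.1% of all probe sets. Of the other 26 plastid genes 7, or 26.9%, passed between array sets. Among them rpoA, for a plastid RNA polymerase subunit, was at 1.24 and rpl36, for a ribosomal protein, at 2.52, while rpoB, for another polymerase subunit, was at -1.46. Whether the photosynthesis genes and these others differ was not tested.

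The accession difference took opposite signs in the array sets for most genes. Within arrays 5 to 8 it was negative for 37 of the 43, with a median of -0.19, and within arrays 1 to 4 it was positive for 36, with a median of 0.24. Over all probe sets tested the medians were 0.02 within arrays 5 to 8 and 0.03 within arrays 1 to 4. The other 26 plastid genes went the same way as the 43. Of these others, 25 were negative within arrays 5 to 8 (median -0.29) and 24 positive within arrays 1 to 4 (median 0.35). limma called none of the 43 within arrays 5 to 8 and none within arrays 1 to 4, beside 2.1% and 2.5% of all probe sets, with 5 genes at an unadjusted p under 0.05 in each, beside 12.4% and 15.3%. The change of the accession difference between the sets was negative for 41 of the 43 genes, beside 50.4% of all probe sets, with a median of -0.42. It was negative for all 26 of the other plastid genes, with a median of -0.72, so that direction was not particular to the 43 genes. For this change limma called none of the 43 nor any other probe set (0.0%). At an unadjusted p under 0.05 there were 6 of the 43 and 8 of the other 26 plastid genes, beside 4.0% of all probe sets. Genes of the plastid moved together on single arrays, so the 6 are not independent of each other. Without Col-4 replicate 4 the median change of the 43 genes was -0.18, with 33 negative. Their median within arrays 5 to 8 was then 0.03, with 23 positive, where the lone Col-4 array left there is assumed to vary like the others. The smallest unadjusted p of the 43 for that change was that of atpI, at -1.02 (limma adjusted p = 0.999).

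Neighbours on the plastid genome could be set side by side from their order in the RefSeq annotation of TAIR10.1. Strand was not taken into account, so neighbours here need not be transcribed together. psbE, psbF, psbL and psbJ, which follow each other, had differences between array sets of 0.34, 0.40, 0.60 and 0.71, with psbJ past the threshold, and differed between accessions by -0.08, -0.03, 0.01 and 0.12. Other runs were uneven. ndhJ, ndhK and ndhC are consecutive, yet between array sets they were at 0.20, -0.35 and 0.75. ndhG, at -0.95, lies between ndhE at 0.17 and ndhI at 0.31. In the run atpA, atpF, atpH and atpI the values were 0.14, 0.29, 0.19 and -0.50. Between the accessions, psbB, psbT, psbN, psbH, petB and petD were at -0.07, -0.28, 0.31, -0.11, -0.03 and 0.23.

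**Figure D5:**
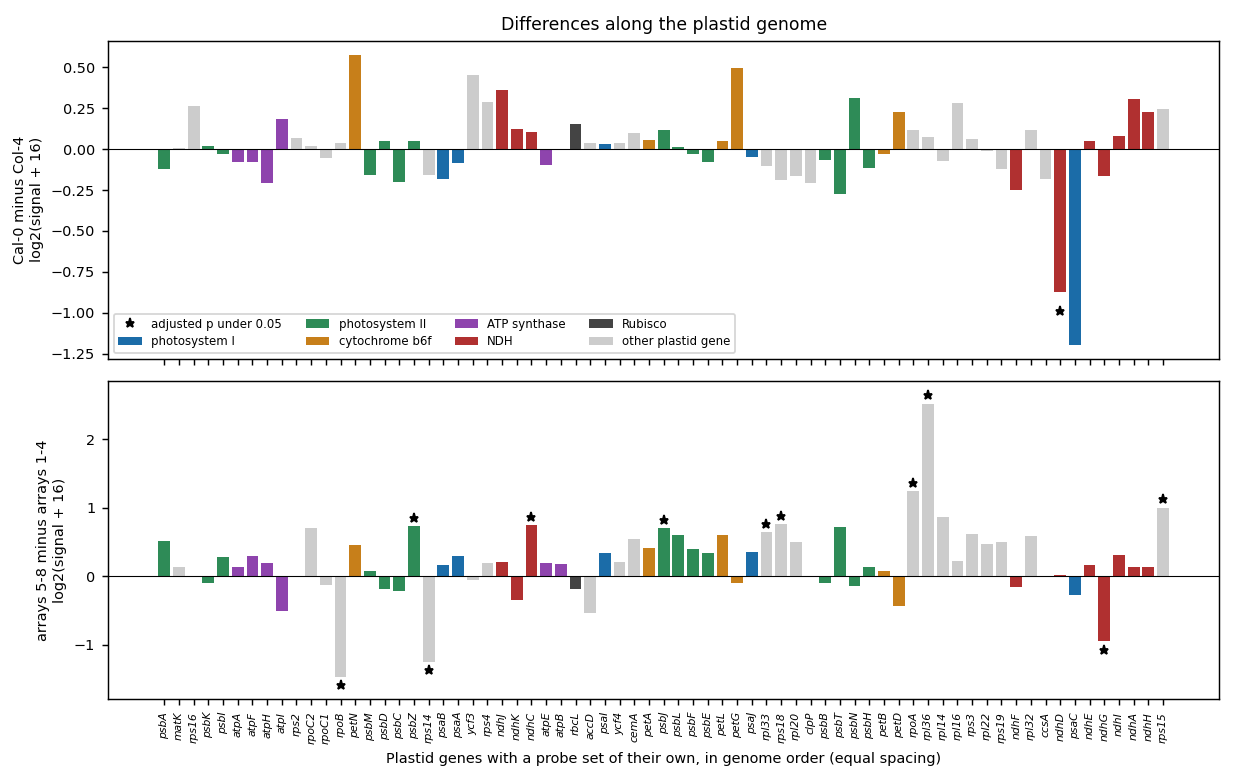
Differences on the log2(signal + 16) scale for the 69 plastid genes with a probe set of their own, in genome order with equal spacing, coloured by complex (other plastid genes grey); stars mark adjusted p under 0.05 (n = 4 arrays each). The upper panel gives Cal-0 minus Col-4, where ndhD and psaC form the adjacent low pair, and the lower panel arrays 5 to 8 minus arrays 1 to 4, where rpl36 reaches 2.52.

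Nuclear genes of the same complexes, and of plastid transcription and RNA processing, were described from 9 lists with 120 entries. The gene table named probe sets for 23 of them, of which 21 were tested and none passed between the accessions, beside 4.29% of all probe sets, with 2 at an unadjusted p under 0.05, beside 15.5%. Their differences ran from -0.55 to 0.54 with a median of -0.05. LHCB4.2, for a light-harvesting protein of photosystem II, averaged 2947 ± 960 in Cal-0, against 4226 ± 795 in Col-4 (SD over n = 4 each; difference -0.55, limma adjusted p = 0.216). CRR28, an editing factor of NDH transcripts, averaged 61.4 ± 10.7 in Cal-0, against 38.2 ± 13.2 in Col-4 (SD over n = 4 each; difference 0.54, limma adjusted p = 0.173). In the other lists, the members with the smallest p were PSAN of photosystem I at -0.32, PSBY of photosystem II at -0.20, PETM of cytochrome b6f at -0.16, ATPC1 of the ATP synthase at -0.15, NDHS of NDH at -0.20 and RCA, Rubisco activase, at -0.01. Between array sets, where 8.03% of all probe sets passed, 1 of the 21 did, PSAE1 for a photosystem I subunit, higher in arrays 5 to 8 by 0.56 (limma adjusted p = 0.0399). The plastid transcription list had no tested member, since RPOTMP, a phage-type RNA polymerase, fell under the filter with a mean of 8.73 ± 1.61 in Cal-0 arrays and 7.95 ± 0.551 in Col-4 arrays (SD over n = 4 each).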

How the data were processed

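Per the submitters' processing notes, the authors used MAS5, and the deposited table holds 1 linear intensity per probe set and array. Its version and settings were not given in the sources used, and no detection calls were used. The array was designed on Columbia sequence. Genes were named from the platform table and RefSeq's TAIR10.1 annotation; 13513 probe sets had 1 gene, 503 several and 8730 were unnamed. No coordinates or sequences are given.

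Signals were taken as log2(signal + 16) without further normalization. Those averaging 25 or more, 15165 probe sets, were tested in limma 3.58.1 under R 4.3.3 (lmFit, eBayes, two-sided; 6 residual degrees of freedom for the accession), adjusted by Benjamini-Hochberg over all of them at 0.05. Accession was the only term in the main test between accessions, which took account of neither replicate number nor array set. Those entered as blocks in alternatives. Array set was tested with accession in the model, and the within-set contrasts and interaction from the mean of each accession in each set. The step was run on simulated data with noise drawn independently for each probe set and array. Such data hold no shift shared by genes of an array, so they cannot show how the test behaves where there is one.

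Genes shown in full were those called in any comparison and, per complex, those with the smallest p and the most positive and negative accession difference; of nuclear lists, at most 3 called members, or that with the smallest p. Same-numbered arrays deviated together (correlation 0.278, 0.376, 0.478 and 0.403 over probe sets). Differently numbered arrays were not compared, and a difference between the array sets can by itself give such correlations. They therefore cannot show that replicate numbers pair samples, and the replicate number was used as a block in an alternative only. Alternatives were other pseudocounts, filters, normalizations, variance models, blocks, a 3′ to 5′ ratio covariate and each array left out. Members and lists were chosen with earlier results of these data known.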

Additional observations from a re-analysis of the deposited data

Results flagged for a closer look

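Over the 86 groups of 4 arrays behind the 43 genes, 3 held an array whose gap to its nearest neighbour, divided by the whole range on the log2(signal + 16) scale, exceeded Dixon's 95% critical value, where chance gives about 1 group in 20. A share of 3 in 86 is below 1 in 20, so the number of such groups is no result about these genes. The genes were measured on the same arrays, so the 3 groups are not independent of each other. All 3 distant values were in Col-4 replicate 4. There psbI reached 3899.6, with Col-4 replicates 1 to 3 between 2323.6 and 2456.7. atpA reached 7169.8, with the others between 5018.4 and 5084.1, and psaI reached 3940.7, with the others between 1838.3 and 1998.3.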

How the results depend on the processing

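The number of the 43 genes called between the accessions was 1, and it was 0 without a filter on mean signal, 2 with the 3′ to 5′ ratio as a covariate and 0 to 1 when single arrays were left out; it did not change in the other alternatives. ndhD was negative in all 21 alternatives and lost its call in 4, those named in the text and the fit without a filter (limma adjusted p = 0.0515). The median accession difference of the 43 genes, -0.003, was 0.15 without Col-4 replicate 4 and -0.15 with the covariate. It moved in all 21 by less than 0.24, the SD of the array medians within an accession, averaged over the accessions. That is a wide limit for the fits without 1 array, since an array left out shifts its group's mean by only part of its own deviation. The count over all probe sets, 651, was 406 with a mean signal of at least 100, 1095 with an array set block and 1299 with a replicate block, and 412 to 672 with single arrays left out, the lowest being 412 (Cal-0 replicate 1 left out) and 413 (Col-4 replicate 2 left out). The replicate block changed no call among the 43 genes. Between array sets the 4 calls became 2 with a pseudocount of 1, 6 with a pseudocount of 50, 1 without a filter and 5 with a mean signal of at least 100. They became 3 after quantile normalization or with array weights, and 0 with the ratio as a covariate. With plastid probe sets centred on their own median in each array, an alternative chosen after seeing the data, there were 8. With single arrays left out there were 0 to 4. That number was 0 without Cal-0 replicate 2, Cal-0 replicate 4 or Col-4 replicate 1, 1 without Col-4 replicate 2 or 3, and 2 without Cal-0 replicate 1. The share of all probe sets called in each of these fits is not given here, so the changes cannot be set beside it. The median difference between array sets, 0.17, was -0.22 with the covariate, 0.098 with array weights and 0.0060 after quantile normalization. It was -0.046 with plastid probe sets centred and 0.032 to 0.30 with single arrays left out. Within arrays 1 to 4 the accession calls were 2 with a pseudocount of 50 and 1 after quantile normalization, and within arrays 5 to 8, 1 with a pseudocount of 50. Uncalled accession differences near 0 changed sign. With the covariate these were psbZ at -0.24, ndhC at -0.16, psaI at -0.17, psbJ at -0.11, psbL at -0.25, petL at -0.22, petA at -0.11, ndhE at -0.096 and ndhI at -0.073. Among genes described in full, these also changed sign: with array weights, atpH at 0.0089 and petB at 0.062; after quantile normalization, petB at 0.081. With single arrays left out atpH ran from -0.37 to 0.10, psbZ from -0.14 to 0.35, ndhC from -0.074 to 0.36, psaI from -0.075 to 0.29, psbJ from -0.038 to 0.29, psbT from -0.52 to 0.13, petB from -0.11 to 0.092 and ndhG from -0.47 to 0.11. The cause was not tested.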
